A study of Kluyveromyces lactis with 17 samples.

Results

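Transcript levels of 9 genes named for the glyoxylate cycle, gluconeogenesis, acetate use, fatty acid oxidation and the methylcitrate cycle were followed in Kluyveromyces lactis. The strains had or lacked the deacetylase gene SIR2 and were kept at 4 levels of nicotinic acid. The 9 genes are ICL1, MLS1, PCK1, ALD4, ALD5, ACS1, POX1, CIT3 and ICL2. They were chosen by name, as the loci that carry these symbols in the RefSeq annotation of assembly ASM251v1, and make up 9 of the 5335 genes counted. All 9 passed the filter on low counts, as did 5224 genes in all. The rule itself uses names and no measured value, though earlier results of these data were known when the genes were picked.

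Cells that use acetate or fatty acids in place of sugar make acetyl-CoA and must then build sugars from it. The glyoxylate cycle does this by skipping the steps of the citric acid cycle that release carbon dioxide, through isocitrate lyase (ICL1) and malate synthase (MLS1), and phosphoenolpyruvate carboxykinase (PCK1) then opens gluconeogenesis. Aldehyde dehydrogenases (ALD4, ALD5) and acetyl-CoA synthetase (ACS1) feed acetyl-CoA into it, and acyl-CoA oxidase (POX1) begins peroxisomal fatty acid oxidation. In Saccharomyces cerevisiae, CIT3 and ICL2 act in the methylcitrate cycle, which breaks down propionyl-CoA, and ICL1, MLS1, PCK1 and ACS1 are known as targets of glucose repression.

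A strain lacking SIR2 (sir2Δ, LRY2993, MATα sir2Δ hmlΔ hmrΔ) was set against a wild-type strain (WT, LRY2992, MATa SIR2 hmlΔ hmrΔ). In both, HML and HMR, which hold silent copies of the mating-type genes, are deleted. The Sir2 protein removes acetyl groups from proteins and uses up NAD+ to do so, and nicotinic acid is the vitamin from which K. lactis makes NAD+. Cultures grew overnight in niacin-free minimal medium with 20 g/L glucose to which 400 µg/L nicotinic acid was added, and were then kept for 4 h at 15, 45, 135 or 400 µg/L. Glucose was thus the carbon source named for all 8 groups, and how much of it was left at harvest is not known here. Each genotype is a single strain, and since the strains also differ in mating type, effects of SIR2 and of mating type cannot be told apart. In bulk RNA, fewer cells that express a gene and less RNA per cell cannot be told apart.

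Each group had 2 replicates, which the series text calls independent biological replicates. In the WT group at 400 µg/L there were 3 libraries (1, 1R and 2), of which 1 and 1R were added up as replicate 1. Whether 1R is a repeat of the same culture or library as 1 is not known here. Totals per library were 24663143 to 38246270 reads. The deleted gene followed the labels: SIR2 (KLLA0_F14663g) had 1.37 ± 0.730 CPM (read counts scaled to a common library size, with TMM factors) in sir2Δ and 140.1 ± 5.61 CPM in WT (SD, n = 8 each). Across genes, replicates of log2 CPM had Pearson r of 0.990 to 0.996, except that library 1 of WT at 400 µg/L had 0.960 with 1R and 0.965 with 2, while 1R and 2 had 0.995. Libraries 1 and 1R, as well as sir2Δ replicate 8 at 15 µg/L, are labelled as resubmitted, without a word on what was.

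Most of the 9 genes were higher in sir2Δ than in WT in these glucose-grown cells. Averaged over the 4 levels, 7 of the 9 were called (adjusted p under 0.05), all of them higher in sir2Δ, where 61.2% of all tested genes were called, 30.9% as higher and 30.2% as lower. The median log2 fold change of the 9 was 0.74, beside -0.0019 over all tested genes. CIT3 and ICL1 had the largest averages, 2.51 ± 0.15 and 2.25 ± 0.06 on the log2 scale, and POX1 followed with 1.58 ± 0.07. MLS1 (0.97 ± 0.05), ALD4 (0.74 ± 0.05), ICL2 (0.72 ± 0.14) and PCK1 (0.64 ± 0.08) also passed the test. ACS1 (-0.12 ± 0.16) and ALD5 (0.01 ± 0.06) did not. The 8 sir2Δ values lay above all 8 WT values for 5 genes, ICL1, MLS1, ALD4, POX1 and CIT3. Over all tested genes the strains did not overlap for 18.8%, with sir2Δ above for 9.13% and below for 9.69%. The strains overlapped for PCK1, ACS1, ALD5 and ICL2. Each of the 7 averaged calls kept its direction and its call under all 24 alternatives run. Without sir2Δ replicate 8 at 15 µg/L, ACS1 was called lower in the average (-0.29, edgeR quasi-likelihood test, adjusted p = 0.0238), while its adjusted p ranged up to 0.969 under the other alternatives.

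**Figure D1:**
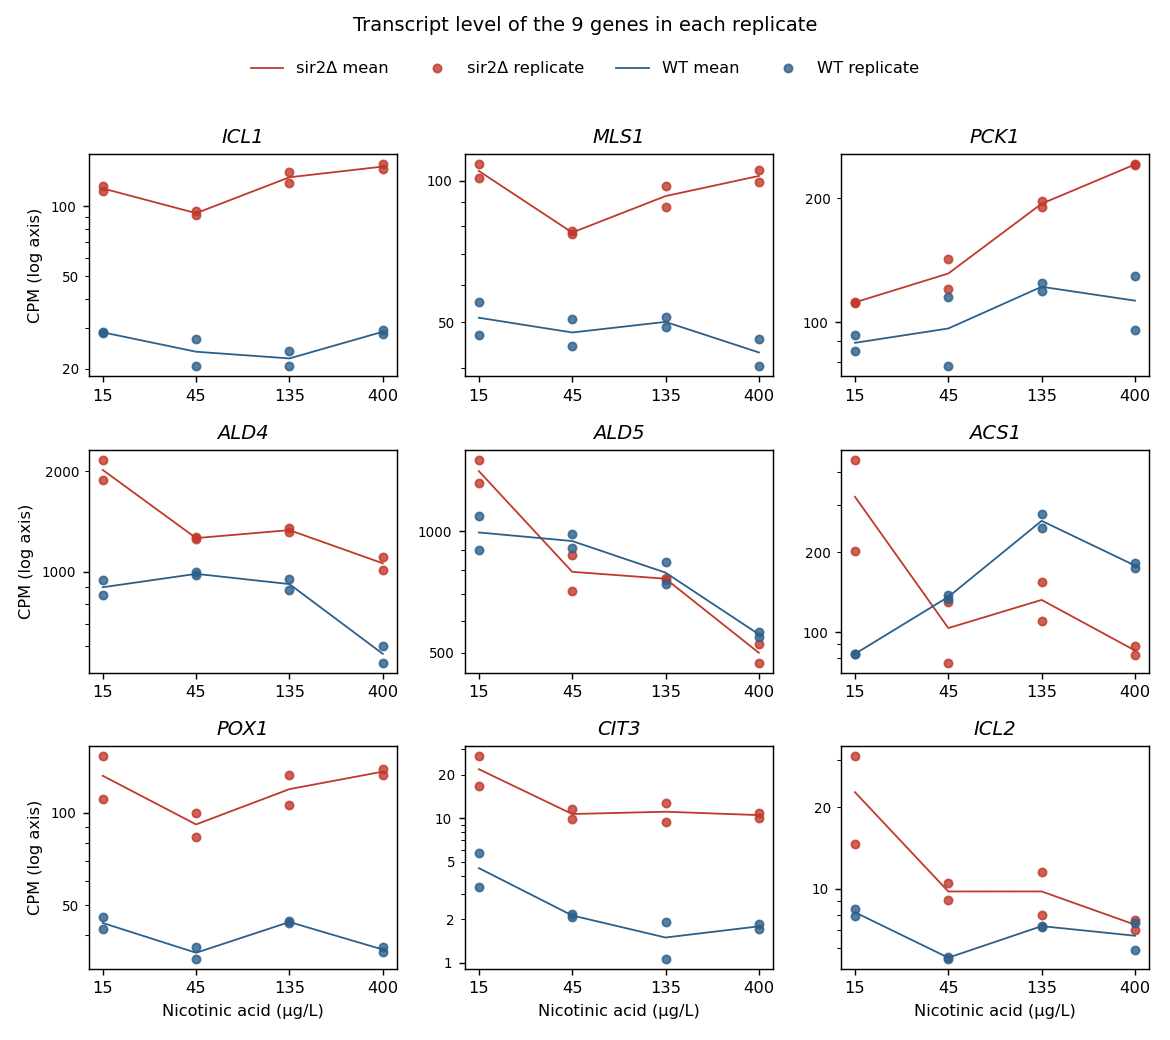
CPM (log axis) of each of the 9 genes against nicotinic acid (µg/L, levels evenly spaced), with a point per replicate and a line through the means of 2 replicates, sir2Δ in red and WT in blue. The strains stand apart at every level for ICL1, MLS1, ALD4, POX1 and CIT3, while the ACS1 lines cross, with sir2Δ above WT at 15 µg/L and below it at 135 and 400 µg/L.

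At 15 µg/L alone, 8 of the 9 genes were called, all higher in sir2Δ. Of all tested genes 30.7% were called there, 14.7% as higher and 16% as lower. At 45 µg/L 7 were called, again all higher (background 39.6%, with 20.9% higher and 18.7% lower). At 135 µg/L 6 were higher and 1 lower (31.8%, with 16.5% higher and 15.3% lower). At 400 µg/L 6 were higher and 1 lower (44.7%, with 22.5% higher and 22.3% lower). In both of these the lower gene was ACS1. The median log2 fold change over the members was 1.48 at 15 µg/L, 0.71 at 45, 0.67 at 135 and 1.10 at 400, while that over all tested genes lay between -0.0115 and 0.0037. ICL1, MLS1, ALD4, POX1 and CIT3 were higher at every level.

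**Figure D2:**
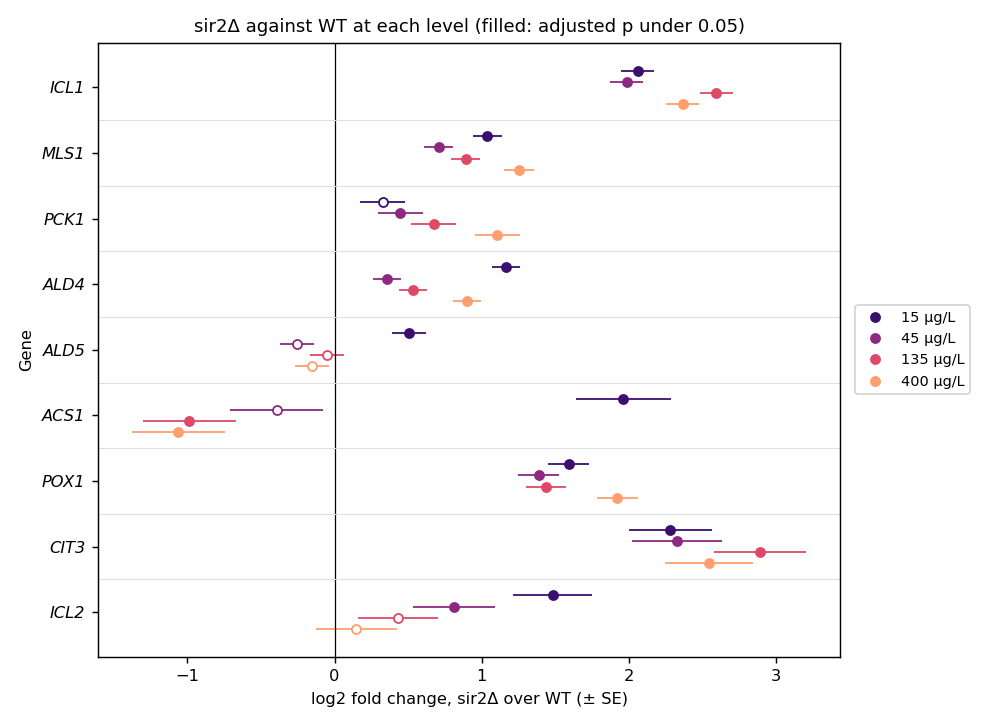
Log2 fold change of sir2Δ over WT (x axis, ± SE, edgeR fit) for each gene (y axis) at 15, 45, 135 and 400 µg/L nicotinic acid, filled where the adjusted p was under 0.05. ICL1, MLS1, ALD4, POX1 and CIT3 lie above 0 with filled points at all 4 levels, and ACS1 spans 1.96 at 15 µg/L to -1.06 at 400 µg/L.

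ICL1, which encodes isocitrate lyase, the entry enzyme of the glyoxylate cycle, had one of the widest gaps between the strains. In sir2Δ it had 116 and 123 CPM at 15 µg/L, 91.6 and 95.2 at 45, 141 and 126 at 135, and 152 and 144 at 400. In WT it had 28.7 and 28.6 CPM at 15 µg/L, 26.7 and 20.6 at 45, 20.4 and 23.8 at 135, and 28.2 and 29.4 at 400. Taken apart, libraries 1, 1R and 2 of WT at 400 µg/L had 22.7, 33.4 and 29.5 CPM. The lowest sir2Δ value lay above the highest WT value by more than the whole WT range. The log2 fold change of sir2Δ over WT was 2.06 ± 0.11 at 15 µg/L, 1.98 ± 0.11 at 45, 2.59 ± 0.11 at 135 and 2.36 ± 0.11 at 400 (edgeR quasi-likelihood test, Benjamini-Hochberg adjusted p between 6.33e-11 and 2.42e-09 at 15, 45 and 400 µg/L and 3.49e-11 at 135). Among the sir2Δ groups the order of means was 400, 135, 15 and 45 µg/L, and no neighbours in that order overlapped. Within WT, 400 and 15 µg/L overlapped, as did 45 and 135.

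MLS1, malate synthase, which joins glyoxylate to acetyl-CoA, differed by about 1 log2 unit. It had 101 and 109 CPM in sir2Δ at 15 µg/L, 77.1 and 78.1 at 45, 97.5 and 88.1 at 135, and 99.5 and 105 at 400. The WT values were 46.9 and 55.3 CPM at 15 µg/L, 50.7 and 44.4 at 45, 51.3 and 48.8 at 135, and 40.3 and 46.0 at 400. All 8 sir2Δ values were higher than all 8 WT values, and sir2Δ at 45 µg/L stood lowest of the sir2Δ groups. In WT the 4 levels overlapped from each neighbour to the next in order of their means. The strain difference was smallest at 45 µg/L, with 0.71 ± 0.10 (edgeR quasi-likelihood test, adjusted p = 3.51e-05), and largest at 400 µg/L, with 1.25 ± 0.10 (adjusted p = 4.03e-08).

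PCK1, which encodes the enzyme that commits oxaloacetate to gluconeogenesis, showed a strain difference whose estimate was larger at each higher level of nicotinic acid. Its sir2Δ values were 112 and 112 CPM at 15 µg/L, 142 and 120.2 at 45, 198 and 191 at 135, and 243 and 241 at 400. Its WT values were 84.8 and 93.2 CPM at 15 µg/L, 115 and 78.0 at 45, 119 and 124 at 135, and 95.7 and 129.8 at 400. Taken apart, libraries 1, 1R and 2 of WT at 400 µg/L had 71.8, 117 and 131 CPM. Every sir2Δ value at 135 and 400 µg/L was above every WT value, while sir2Δ at 15 µg/L lay inside the WT range. The log2 fold change over WT was 0.33 ± 0.15 at 15 µg/L, which did not pass the test, 0.45 ± 0.15 at 45, 0.67 ± 0.15 at 135 and 1.10 ± 0.15 at 400 (edgeR quasi-likelihood test, adjusted p = 0.120, 0.0286, 0.00263 and 1.93e-05). The call at 45 µg/L rested on single libraries: it was lost without sir2Δ replicate 5 (0.32, adjusted p = 0.187 in the edgeR quasi-likelihood test) and without WT replicate 6 (0.19, adjusted p = 0.349), and the adjusted p of its alternatives ranged from 0.00119 to 0.349. At 135 µg/L the call was lost with WT libraries 1 and 1R as separate columns (0.67, edgeR quasi-likelihood test, adjusted p = 0.0517, against 2.78e-35 with only the groups compared, the lowest over its alternatives). With the replicate number as a block, PCK1 was called at 15 µg/L (edgeR quasi-likelihood test, adjusted p = 0.0215).

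ALD4 and ALD5 encode aldehyde dehydrogenases, mitochondrial in S. cerevisiae, that turn acetaldehyde into acetate. They were the most abundant of the 9 per kilobase of coding length, with strain means of 904 CPM per kb in sir2Δ and 538 in WT for ALD4, and of 561 in sir2Δ and 531 in WT for ALD5. ALD4 had 1875 and 2157 CPM in sir2Δ at 15 µg/L, 1274 and 1251 at 45, 1313 and 1353 at 135, and 1107 and 1016 at 400. In WT it had 856 and 945 CPM at 15 µg/L, 977 and 997 at 45, 954 and 886 at 135, and 603 and 537 at 400. Its lowest sir2Δ group, at 400 µg/L, was just above its highest WT group, at 45 µg/L, and the strain difference at matched levels was 1.16 ± 0.10 at 15 µg/L, 0.35 ± 0.09 at 45, 0.54 ± 0.09 at 135 and 0.90 ± 0.10 at 400 (log2, edgeR quasi-likelihood test, adjusted p = 2.80e-07, 0.00695, 0.000355 and 1.08e-06). The call at 45 µg/L was lost when only the groups compared entered the fit (adjusted p = 0.0877 by the edgeR quasi-likelihood test, the highest over its alternatives, where the lowest was 0.000518).

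ALD5 separated the levels more than the strains. In sir2Δ it had 1316 and 1499 CPM at 15 µg/L, 874 and 713 at 45, 759 and 767 at 135, and 527 and 474 at 400. WT had 897 and 1088 CPM at 15 µg/L, 909 and 982 at 45, 839 and 741 at 135, and 549 and 563 at 400. Values were highest in sir2Δ at 15 µg/L. At 45 and 400 µg/L both sir2Δ values were below both WT values, and at 135 µg/L the strains overlapped. Taken apart, libraries 1, 1R and 2 of WT at 400 µg/L had 402, 680 and 566 CPM. Library 1 alone thus lay below both sir2Δ values at 400 µg/L. The strain difference passed the test at 15 µg/L, with 0.50 ± 0.12 (edgeR quasi-likelihood test, adjusted p = 0.00361). That call was lost without sir2Δ replicate 8 (0.41, adjusted p = 0.0552 by the same edgeR test) and without WT replicate 7 (0.37, adjusted p = 0.0659), and over its alternatives the adjusted p ranged from 9.45e-05 to 0.0995. At 45, 135 and 400 µg/L the estimates were -0.25 ± 0.12, -0.05 ± 0.12 and -0.15 ± 0.12, and did not pass. Leaving out sir2Δ replicate 5 at 45 µg/L brought a call of -0.41 there (edgeR quasi-likelihood test, adjusted p = 0.0211), as did the replicate block (-0.26, adjusted p = 0.0428), and leaving out WT library 1 brought a call of -0.31 at 400 µg/L (adjusted p = 0.0352).

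ACS1 encodes acetyl-CoA synthetase, which makes acetyl-CoA from acetate, and its strain difference changed sign between the lowest and the highest level. In sir2Δ it had 202 and 443 CPM at 15 µg/L, 76.9 and 130.3 at 45, 109.7 and 155 at 135, and 88.6 and 82.0 at 400. In WT it had 82.9 and 82.8 CPM at 15 µg/L, 133 and 138 at 45, 278 and 246 at 135, and 175 and 181 at 400. The WT maximum was at 135 µg/L and its minimum at 15 µg/L, the level at which the sir2Δ values were highest. ACS1 had the widest spread of the 9 in sir2Δ, 5.76 times between the highest and lowest replicate, and 3.36 times in WT. The log2 fold change of sir2Δ over WT was 1.96 ± 0.32 at 15 µg/L, -0.39 ± 0.32 at 45, -0.99 ± 0.31 at 135 and -1.06 ± 0.32 at 400 (edgeR quasi-likelihood test, adjusted p = 0.000796, 0.357, 0.0323 and 0.0180).

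The lower ACS1 in sir2Δ at 135 and 400 µg/L was a weak call. At 400 µg/L the strains did not overlap, but the adjusted p rose to between 0.0541 and 0.0957 without sir2Δ replicate 1 or 2, without WT libraries 1 and 1R together, or without WT replicate 2, and to 0.0625 with the replicate block (edgeR quasi-likelihood test). At 135 µg/L it was 0.116 without sir2Δ replicate 3, 0.139 and 0.0756 without WT replicate 3 or 4, and 0.0874 with the block (edgeR quasi-likelihood test), and estimates ranged from -1.26 to -0.76. The ACS1 rise at 15 µg/L became 1.29 without sir2Δ replicate 8 and was lost when only the groups compared were fitted (1.96, edgeR quasi-likelihood test, adjusted p = 0.109, with a lowest adjusted p of 3.79e-07 among its alternatives).

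POX1, the acyl-CoA oxidase gene of peroxisomal fatty acid oxidation, was higher in sir2Δ at every level. Its sir2Δ values were 111 and 153 CPM at 15 µg/L, 99.8 and 83.7 at 45, 106 and 133 at 135, and 139 and 133 at 400. Those of WT were 41.8 and 45.9 CPM at 15 µg/L, 33.6 and 36.6 at 45, 44.4 and 43.9 at 135, and 36.7 and 35.2 at 400. No WT value reached the lowest sir2Δ value. The log2 fold change over WT was 1.59 ± 0.14 at 15 µg/L, 1.39 ± 0.14 at 45, 1.44 ± 0.14 at 135 and 1.92 ± 0.14 at 400 (edgeR quasi-likelihood test, adjusted p = 4.76e-07, 7.61e-07, 4.96e-07 and 1.09e-08).

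CIT3, in S. cerevisiae a mitochondrial citrate and methylcitrate synthase, was the gene with the largest strain difference and the lowest WT level of the 9, with 1.74 CPM per kb in WT beside 9.49 in sir2Δ. It had 16.8 and 26.8 CPM in sir2Δ at 15 µg/L, 9.81 and 11.5 at 45, 9.44 and 12.7 at 135, and 10.1 and 10.9 at 400. WT had 5.69 and 3.32 CPM at 15 µg/L, 2.07 and 2.17 at 45, 1.92 and 1.06 at 135, and 1.86 and 1.70 at 400. All sir2Δ values exceeded all WT values, and in each strain the 15 µg/L replicates were the highest. The WT values rest on 39 to 183 reads per library, so their counting error is larger than that of the other genes. The strain difference was 2.28 ± 0.28 at 15 µg/L, 2.33 ± 0.30 at 45, 2.89 ± 0.31 at 135 and 2.54 ± 0.30 at 400 (log2, edgeR quasi-likelihood test, adjusted p between 2.04e-06 and 1.61e-05).

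ICL2, a mitochondrial 2-methylisocitrate lyase in S. cerevisiae and the companion of CIT3 in the methylcitrate cycle, was low in most groups. In sir2Δ it had 14.6 and 30.9 CPM at 15 µg/L, 9.05 and 10.5 at 45, 7.97 and 11.5 at 135, and 7.03 and 7.67 at 400. WT had 8.40 and 7.94 CPM at 15 µg/L, 5.50 and 5.59 at 45, 7.29 and 7.23 at 135, and 5.94 and 7.43 at 400. The strains were apart at 15, 45 and 135 µg/L and overlapped at 400 µg/L. The log2 fold change over WT was 1.48 ± 0.27 at 15 µg/L, 0.81 ± 0.28 at 45, 0.43 ± 0.27 at 135 and 0.15 ± 0.28 at 400, of which the differences at 15 and 45 µg/L passed (edgeR quasi-likelihood test, adjusted p = 0.000565, 0.0300, 0.251 and 0.703). Without sir2Δ replicate 8 the difference at 15 µg/L was 0.84, and the call at 45 µg/L was lost without sir2Δ replicate 6 (0.71, edgeR quasi-likelihood test, adjusted p = 0.116) or WT replicate 5 or 6 (0.80 and 0.82, adjusted p = 0.101 and 0.104), within a range of 0.0107 to 0.116 over its alternatives.

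Between 15 and 400 µg/L, ALD4, ALD5, ACS1 and CIT3 were called in both strains, and ICL2 and PCK1 in sir2Δ alone. At 15 against 400 µg/L in sir2Δ, 5 of the 9 genes were higher and 1 was lower, where 17.6% of all tested genes were called, 11.6% as higher and 6.09% as lower. In WT 3 were higher and 1 was lower in the same comparison (26.1%, with 15.8% higher and 10.3% lower). The median of the 9 was 0.93 in sir2Δ and 0.29 in WT, beside 0.0067 and -0.0130 over all tested genes. The glyoxylate genes ICL1 (-0.31 ± 0.10 in sir2Δ and -0.01 ± 0.11 in WT) and MLS1 (0.04 ± 0.10 and 0.25 ± 0.10) did not pass in either strain, nor did POX1 (-0.04 ± 0.13 and 0.29 ± 0.14). ICL1 in sir2Δ was at the threshold (edgeR quasi-likelihood test, adjusted p = 0.0505) and was called by DESeq2 (-0.31, adjusted p = 0.0346) and when only the groups compared were fitted (-0.32, edgeR quasi-likelihood test, adjusted p = 0.00133, the lowest of a range up to 0.285). MLS1 was called higher in WT without WT replicate 2 at 400 µg/L (0.34, edgeR quasi-likelihood test, adjusted p = 0.0388) or WT replicate 7 at 15 µg/L (0.36, adjusted p = 0.0486), against up to 0.492 otherwise.

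**Figure D3:**
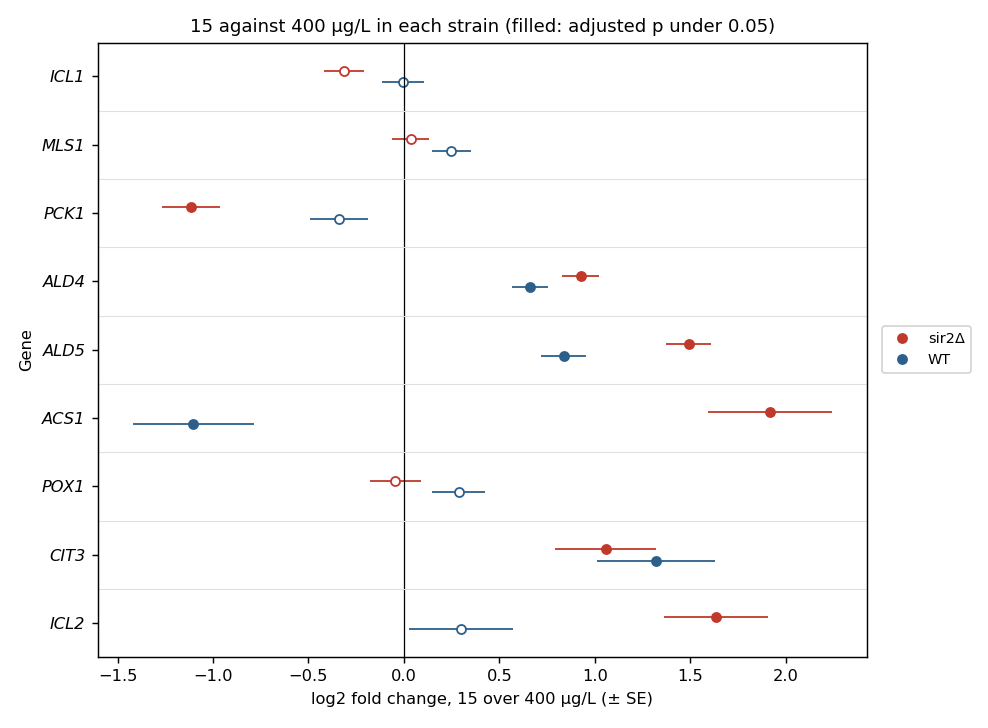
Log2 fold change of 15 over 400 µg/L nicotinic acid (x axis, ± SE, edgeR fit) for each gene (y axis), sir2Δ in red above WT in blue, filled where the adjusted p was under 0.05. ALD4, ALD5 and CIT3 lie to the right of 0 with filled points in both strains, and ACS1 lies at 1.92 in sir2Δ and -1.10 in WT.

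ALD4, ALD5 and CIT3 rose at 15 µg/L in both strains. For ALD5 the log2 fold change was 1.49 ± 0.12 in sir2Δ and 0.84 ± 0.12 in WT, for ALD4 it was 0.93 ± 0.10 in sir2Δ and 0.66 ± 0.10 in WT, and for CIT3 it was 1.06 ± 0.26 in sir2Δ and 1.32 ± 0.31 in WT (edgeR quasi-likelihood test, adjusted p between 1.45e-06 and 0.0104). The CIT3 calls were lost on leaving out some single libraries, in part with nearly the same estimate. In sir2Δ it had 0.68 without replicate 8 at 15 µg/L (edgeR quasi-likelihood test, adjusted p = 0.183), and was also lost without replicate 1 or 2 at 400 µg/L (1.00 and 1.11, adjusted p = 0.0879 and 0.0656), over a range of 0.000439 to 0.183. In WT it had 0.89 without replicate 7 at 15 µg/L (edgeR quasi-likelihood test, adjusted p = 0.101, over a range of 6.09e-05 to 0.101). The ALD4 and ALD5 calls at 15 µg/L held under all alternatives run in both strains.

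The responses of 4 genes to 15 µg/L differed between the strains by the interaction, which is the log2 change of 15 over 400 µg/L in sir2Δ less the same change in WT. Of the 9 genes, 3 had a positive interaction and 1 a negative one, where 17.2% of all tested genes were called, 7.5% as positive and 9.71% as negative. ACS1 was higher at 15 than at 400 µg/L in sir2Δ (1.92 ± 0.32) and lower in WT (-1.10 ± 0.32), and its interaction was 3.02 ± 0.45 (edgeR quasi-likelihood test, adjusted p = 0.000690). That value was 2.35 without sir2Δ replicate 8, and it was called under each of its 17 alternatives, with a highest adjusted p of 0.0182 (edgeR quasi-likelihood test). The rise of ACS1 in sir2Δ by itself was 1.24 without replicate 8 and was lost when only the groups compared were fitted (1.91, edgeR quasi-likelihood test, adjusted p = 0.146, with 1.36e-06 the lowest over its alternatives). The fall of ACS1 in WT by itself was lost without WT replicate 7 or 8 at 15 µg/L, without WT libraries 1 and 1R together, or without WT replicate 2 at 400 µg/L (adjusted p = 0.102 to 0.131 by the edgeR quasi-likelihood test, with estimates of -1.13 to -1.08 and 2.01e-05 as the lowest over its alternatives).

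ICL2 rose in sir2Δ (1.63 ± 0.27) and had 0.30 ± 0.27 in WT, which did not pass, with an interaction of 1.33 ± 0.38 (edgeR quasi-likelihood test, adjusted p = 0.0232). Its rise in sir2Δ was 0.99 without replicate 8, and it was lost when only the groups compared were fitted (1.63, edgeR quasi-likelihood test, adjusted p = 0.0892, with 3.92e-08 the lowest over its alternatives). ALD5 had an interaction of 0.66 ± 0.16 (edgeR quasi-likelihood test, adjusted p = 0.0104), as its rise was larger in sir2Δ. PCK1 ran the other way: it fell by 1.12 ± 0.15 in sir2Δ and had -0.34 ± 0.15 in WT, which did not pass, with an interaction of -0.78 ± 0.21 (edgeR quasi-likelihood test, adjusted p = 0.0188). These 3 interactions were weak calls, each lost on leaving out single libraries, for PCK1 and ICL2 in part with nearly the same estimate. Without sir2Δ replicate 8 at 15 µg/L they were 0.69 for ICL2, 0.56 for ALD5 and -0.78 for PCK1 (edgeR quasi-likelihood test, adjusted p = 0.167, 0.0611 and 0.0642). Without library 1R of WT at 400 µg/L they were 1.20, 0.45 and -0.94 (adjusted p = 0.119, 0.279 and 0.0865), and without sir2Δ replicate 2 at 400 µg/L they were 1.40, 0.58 and -0.78 (edgeR quasi-likelihood test, adjusted p = 0.0622, 0.0642 and 0.0574).

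The other libraries that ended such a call did so for fewer of these genes. For ICL2 they were sir2Δ replicate 1 (1.27) and WT replicate 2 (1.18) at 400 µg/L and WT replicates 7 (1.37) and 8 (1.29) at 15 µg/L. For ALD5 it was WT replicate 7 at 15 µg/L (0.51). For PCK1 they were sir2Δ replicate 7 (-0.78) and WT replicate 8 (-0.71) at 15 µg/L, sir2Δ replicate 1 (-0.77) at 400 µg/L and WT libraries 1 and 1R together (-0.57). In all of these fits the adjusted p lay between 0.0578 and 0.0865 (edgeR quasi-likelihood test), and over all alternatives it ranged from 0.000703 to 0.167 for ICL2, 0.000719 to 0.279 for ALD5 and 0.00105 to 0.0951 for PCK1. The fall of PCK1 in sir2Δ itself was called under its 10 alternatives. In WT PCK1 was called lower without library 1 at 400 µg/L (-0.47, edgeR quasi-likelihood test, adjusted p = 0.0108) or libraries 1 and 1R together (-0.54, adjusted p = 0.0201), against up to 0.660 otherwise. The interaction of POX1 at 15 µg/L, which was -0.33 ± 0.19 and did not pass, gained a call without sir2Δ replicate 8 (-0.58).

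At 45 µg/L in sir2Δ, ICL1, MLS1 and POX1 had their lowest group means of that strain, while PCK1 had its lowest and ALD5 its highest at 15 µg/L. At 45 against 400 µg/L in sir2Δ, 4 of the 9 genes were lower and 1 was higher, where 18.6% of all tested genes were called, 7.83% as lower and 10.7% as higher. The lower genes were PCK1 (-0.88 ± 0.15), ICL1 (-0.67 ± 0.11), POX1 (-0.57 ± 0.13) and MLS1 (-0.40 ± 0.10), and the higher gene was ALD5 (0.67 ± 0.12). Each was past the threshold with an adjusted p between 0.000917 and 0.0128 in the edgeR quasi-likelihood test. With WT libraries 1 and 1R as separate columns, ALD5 (0.67) and MLS1 (-0.40) lost the call (edgeR quasi-likelihood test, adjusted p = 0.0717 and 0.077). MLS1 lost the call without sir2Δ replicate 1 or 2 at 400 µg/L or replicate 5 at 45 µg/L (-0.44, -0.36 and -0.39), and POX1 lost it without sir2Δ replicate 1 at 400 µg/L or replicate 6 at 45 µg/L (-0.53 and -0.45), with adjusted p between 0.0511 and 0.0989 in the edgeR quasi-likelihood test.

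In WT at 45 against 400 µg/L, ALD4 (0.79 ± 0.10) and ALD5 (0.77 ± 0.12) were higher, and no member was lower by the edgeR quasi-likelihood test or by DESeq2. Of all tested genes 10.7% were called there, 7.2% as higher and 3.46% as lower. The unadjusted p was under 0.05 for 1 gene with a negative estimate, ICL1 (-0.28 ± 0.11). ICL1 was called lower at 45 µg/L in WT without library 1 at 400 µg/L (-0.41, adjusted p = 0.0215) and without replicate 5 at 45 µg/L (-0.49, adjusted p = 0.0149), where PCK1 was too (-0.53, edgeR quasi-likelihood test, adjusted p = 0.0364).

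The interaction at 45 µg/L, added after seeing the data, was negative for MLS1 (-0.54 ± 0.14, edgeR quasi-likelihood test, adjusted p = 0.0407) and ALD4 (-0.54 ± 0.13, adjusted p = 0.0310), where 4.21% of all tested genes were called, 3.1% as negative and 1.11% as positive. Without library 1R of WT at 400 µg/L neither passed (-0.61 and -0.59), nor did they without sir2Δ replicate 1 (-0.58 and -0.48) or 2 (-0.50 and -0.60) at 400 µg/L or sir2Δ replicate 5 at 45 µg/L (-0.53 and -0.56). MLS1 was also lost without sir2Δ replicate 6 (-0.55) or WT replicate 5 (-0.45) at 45 µg/L or WT libraries 1 and 1R together (-0.45), and ALD4 without WT replicate 2 at 400 µg/L (-0.46) or WT replicate 6 at 45 µg/L (-0.53). Without WT replicate 6 at 45 µg/L, ICL1 (-0.56) and PCK1 (-0.91) were called, and PCK1 also without WT replicate 2 at 400 µg/L (-0.89). Over all alternatives the adjusted p ranged from 0.00878 to 0.152 for MLS1 and from 0.000323 to 0.155 for ALD4 (edgeR quasi-likelihood test, or DESeq2 where that was the alternative).

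Few genes were called between 135 and 400 µg/L. In sir2Δ ALD5 was higher (0.61 ± 0.12, edgeR quasi-likelihood test, adjusted p = 0.0216), where 1.9% of all tested genes were called, 1.17% as higher and 0.727% as lower. Without sir2Δ replicate 1 or 2 at 400 µg/L, or replicate 3 or 4 at 135 µg/L, ALD5 was not called (0.69, 0.53, 0.62 and 0.60, edgeR quasi-likelihood test, adjusted p between 0.0960 and 0.234). DESeq2 also called ALD4 higher there (0.33, adjusted p = 0.00805), and with only the groups compared both ALD4 (0.32, edgeR quasi-likelihood test, adjusted p = 1.46e-05) and PCK1 (-0.33, adjusted p = 3.23e-05) were called. In WT ALD4 (0.69 ± 0.10) and ALD5 (0.51 ± 0.12) were higher, with adjusted p of 0.000426 and 0.0243 in the edgeR quasi-likelihood test, where 3.08% of all tested genes were called, 2.22% as higher and 0.861% as lower. The ALD5 call in WT was lost without any of library 1 (0.35), library 1R (0.71), both together (0.49), replicate 3 (0.41) and replicate 4 (0.59), with adjusted p between 0.0565 and 0.318 (edgeR quasi-likelihood test), while ICL1 was called lower without library 1 (-0.50, adjusted p = 0.0150) and by DESeq2 (-0.38, adjusted p = 0.0417). The interaction at 135 µg/L, also added after seeing the data, called none of the 9 by the edgeR quasi-likelihood test or by DESeq2, with 3 at an unadjusted p under 0.05, and 2.72% of all tested genes were called, 1.05% as positive and 1.67% as negative.

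Of the sir2Δ replicates at 15 µg/L, replicate 8 had higher values of part of these genes than replicate 7. The ratio of replicate 8 to 7 was 2.19 for ACS1, 2.12 for ICL2 and 1.59 for CIT3, and between 1.00 and 1.37 for the other 6 genes. Over all tested genes the median ratio was 0.999, and 0.957% of them had a ratio of at least 1.5. Among genes of the carnitine shuttle, the ratio was 1.81 for the mitochondrial carrier CRC1, 1.60 for the acetyltransferase CAT2, 1.31 for YAT1 and 1.10 for YAT2. PDH1 of the propionate list had 1.73, and FOX2 of the fatty acid oxidation list had 1.66. Other named genes of these lists had closer values in the sir2Δ replicates at 15 µg/L. These were 729 and 787 CPM for MDH3, 404 and 434 for IDP3, 189 and 201 for SPS19 and 24.3 and 29.3 for PXA2. AGP2 of the carnitine list had 176 and 192 CPM. Without replicate 8 the strain difference at 15 µg/L was 2.02 for ICL1, 0.99 for MLS1, 1.06 for ALD4, 1.34 for POX1, 1.90 for CIT3, 1.29 for ACS1 and 0.84 for ICL2. These 7 stayed called, with ICL2 having the highest adjusted p of 0.0164 in the edgeR quasi-likelihood test. PCK1 (0.33) and ALD5 (0.41) did not pass in that fit.

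Levels within a strain moved together in subsets of the 9. Over the 8 sir2Δ columns, log2 CPM of ACS1 and ICL2 had Pearson r = 0.964, of ACS1 and CIT3 0.958, of ICL2 and CIT3 0.972 and of ALD4 and ALD5 0.973. Over the 8 WT columns the same pairs had -0.208, -0.847, 0.403 and 0.906, so the ALD pair was close in both strains. ICL1 with MLS1 had 0.781 in sir2Δ and -0.074 in WT, and ICL1 with POX1 had 0.693 in sir2Δ and -0.192 in WT. These are descriptions over columns that share nicotinic acid levels and, in sir2Δ, include replicate 8.

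Genes of the surrounding pathways were taken from 8 lists of S. cerevisiae names, which include the members. Not every name had a tested gene: the acetate and ethanol list gave 9 tested genes from 19 names, and the regulator list 14 from 20. Their counts in the strain average stand beside the 30.9% higher and 30.2% lower of all tested genes. In sir2Δ against WT averaged over the levels, the peroxisomal fatty acid oxidation list had 16 of 17 tested genes higher, POX1 among them, with a median of 0.70. Its largest averages beside POX1 were those of PXA2 (1.88 ± 0.09), part of the transporter that brings fatty acyl-CoA into peroxisomes, FOX2 (1.32 ± 0.08), the multifunctional enzyme of the next steps, IDP3 (1.20 ± 0.04), a peroxisomal isocitrate dehydrogenase, and MDH3 (1.02 ± 0.06), the peroxisomal malate dehydrogenase, each known in these roles from S. cerevisiae. PXA2 ranged from 18.7 to 29.3 CPM over the sir2Δ columns and from 5.10 to 9.33 CPM over the WT columns. Of the peroxisome assembly list 7 of 22 were higher and 6 lower, with a median of 0.02, and 4 higher and 9 lower with upper-quartile scaling.

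**Figure D4:**
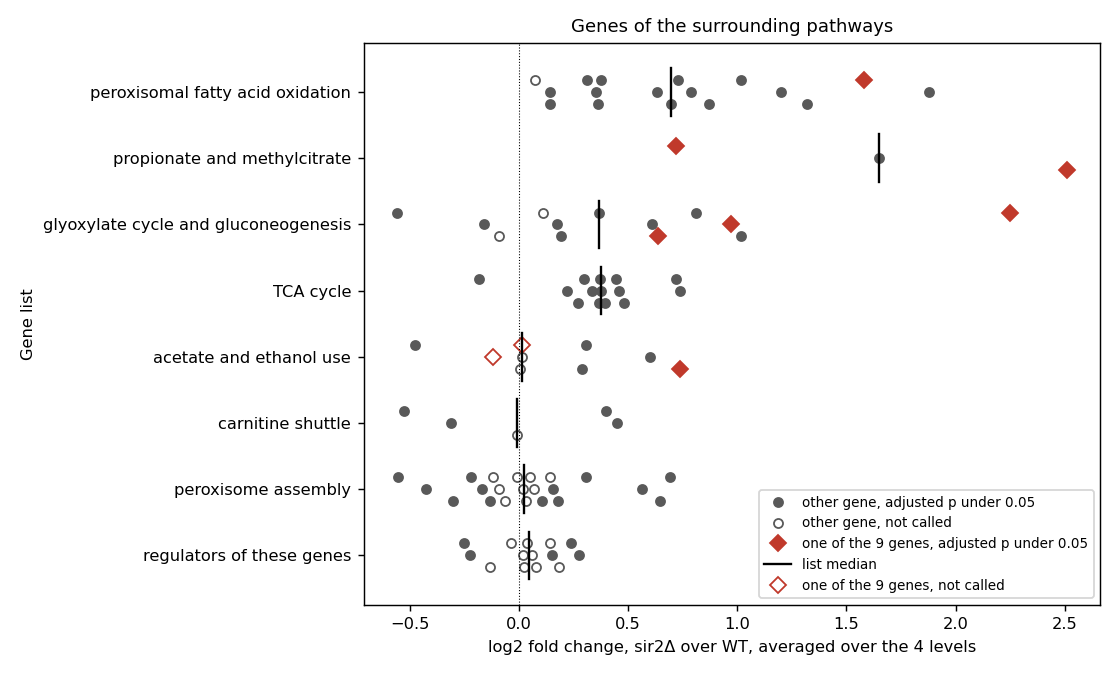
Log2 fold change of sir2Δ over WT averaged over the 4 levels (x axis) of every tested gene in 8 pathway lists (y axis), with the 9 genes as red diamonds, other genes as grey circles, filled where the adjusted p was under 0.05, and a bar at each list's median. The fatty acid oxidation list lies to the right of 0 with 16 of 17 points filled, while peroxisome assembly lies on both sides with a median of 0.02.

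The propionate list held CIT3, ICL2 and PDH1, a 2-methylcitrate dehydratase in S. cerevisiae, and all 3 were higher in sir2Δ. PDH1 had 1.65 ± 0.10 in the average, and it rose at 15 against 400 µg/L in sir2Δ (1.26 ± 0.19) and in WT (1.55 ± 0.20). At 15 µg/L PDH1 had 82.2 and 142 CPM in sir2Δ and 37.1 and 38.2 CPM in WT, and at 400 µg/L 44.5 and 49.0 CPM in sir2Δ and 12.9 and 12.9 CPM in WT. In WT the PDH1 groups at 15 and 400 µg/L stood far apart, and sir2Δ at 400 µg/L was above WT at 15 µg/L. The interaction of PDH1 was -0.28 ± 0.27 and did not pass.

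Of the citric acid cycle list 13 of 14 genes were higher in the average and 1 was lower, with a median of 0.37. The glyoxylate and gluconeogenesis list had 9 of 13 higher and 2 lower, with a median of 0.37. Beside ICL1, MLS1, PCK1 and MDH3, the malic enzyme gene MAE1 had 0.81 ± 0.06, and MAE1 also rose at 15 against 400 µg/L in sir2Δ (0.85 ± 0.11) and in WT (1.02 ± 0.11). Of the acetate and ethanol list 4 of 9 were higher and 1 was lower, with a median of 0.01. Without the members, 3 of 6 were higher and 1 lower in that list, and 6 of 10 higher and 2 lower in the glyoxylate list. In WT at 15 against 400 µg/L the fatty acid oxidation list had 5 of 17 genes higher and 4 lower, the glyoxylate list 3 of 13 higher and 4 lower, and the citric acid cycle list 1 of 14 higher and 2 lower, where 15.8% of all tested genes were higher and 10.3% lower. In that comparison SPS19, a peroxisomal dienoyl-CoA reductase in S. cerevisiae, rose by 1.04 ± 0.08, while IDP3 fell by 0.69 ± 0.08 and MDH3 fell by 0.40 ± 0.11.

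The carnitine shuttle carries acetyl units between compartments, and its 5 genes split by level. In the average CRC1 (0.45 ± 0.13) and CAT2 (0.40 ± 0.08) were higher in sir2Δ, YAT1 (-0.31 ± 0.06) and AGP2 (-0.53 ± 0.05) were lower, and YAT2 (-0.01 ± 0.05) did not pass. At 15 against 400 µg/L in sir2Δ, CRC1 (1.14 ± 0.26), CAT2 (0.57 ± 0.15), YAT1 (0.40 ± 0.11) and YAT2 (0.38 ± 0.11) rose. Of all tested genes 11.6% were called higher in that comparison. In WT CRC1 had -0.34 ± 0.27, CAT2 -0.41 ± 0.16 and YAT2 -0.30 ± 0.11, and these did not pass. With RLE or upper-quartile scaling factors 1 gene of the list was called lower in WT. The interactions of CRC1 (1.49 ± 0.37), CAT2 (0.97 ± 0.22) and YAT2 (0.68 ± 0.15) were positive and called, where 7.5% of all tested genes were called as positive. These interactions were not examined without replicate 8. AGP2 was not called in the interaction or at 15 against 400 µg/L in sir2Δ, with sir2Δ means of 184 CPM at 15 µg/L and 203 at 400. CRC1 had 68.6 and 124 CPM in sir2Δ and 30.8 and 32.0 CPM in WT at 15 µg/L, the higher sir2Δ value being that of replicate 8. For CAT2 the sir2Δ values at 15 µg/L were 61.5 and 98.6 CPM, again with replicate 8 higher.

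Of 14 tested genes for regulators of these pathways, 3 were higher and 2 lower in the strain average, with a median of 0.05: RGT1 (0.28 ± 0.07), OAF3 (0.24 ± 0.05) and the kinase gene SNF1 (0.15 ± 0.05) were higher, and the glucose repressor MIG1 (-0.23 ± 0.05) and ERT1 (-0.25 ± 0.07) were lower. The activators CAT8 (0.08 ± 0.05), SIP4 (0.14 ± 0.10) and ADR1 (0.18 ± 0.08), which turn on genes of this kind in S. cerevisiae, did not pass, nor did SNF4 (0.04 ± 0.05), RDS2 (0.06 ± 0.07), HAP2 (0.02 ± 0.08), HAP3 (0.02 ± 0.09), HAP4 (-0.14 ± 0.07) and HAP5 (-0.04 ± 0.06). At 15 against 400 µg/L in sir2Δ, 1 of the 14 was higher and 1 lower, beside 11.6% and 6.09% of all tested genes. In WT 1 was higher and 3 were lower, beside 15.8% and 10.3%. In this comparison MIG1 fell in sir2Δ (-0.79 ± 0.09) and in WT (-0.46 ± 0.09), and ERT1 rose in sir2Δ (0.57 ± 0.14) and in WT (0.57 ± 0.14). RGT1 fell in WT (-0.55 ± 0.15) and had -0.11 ± 0.15 in sir2Δ, which did not pass, and the interaction did not pass either (0.44 ± 0.21). RDS2 fell by 1.06 ± 0.15 at 15 against 400 µg/L in WT and had 0.15 ± 0.15 in sir2Δ, with an interaction of 1.21 ± 0.21 that passed. Upper-quartile scaling made 3 regulators lower in the average in place of 2.

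The genes whose levels over the 16 columns were most like those of ICL1 were KLLA0_C14949g (Pearson r of log2 CPM 0.990), AFB1 (0.983), KLLA0_F22198g (0.979), GAS4 (0.979) and RAD30 (0.976). For MLS1 they were PXA2 (0.964), KLLA0_D08811g (0.963), KLLA0_C14949g (0.961), IDP1 (0.957) and KLLA0_E04357g (0.957). The gap between the strains carries much of these values, and within a strain (8 columns each) KLLA0_C14949g kept r of 0.933 in sir2Δ and 0.886 in WT with ICL1, while AFB1 had 0.857 and 0.221 and RAD30 had 0.180 and 0.626. For MLS1, PXA2 had 0.711 in sir2Δ and 0.442 in WT.

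The 9 genes lie on 4 of the chromosomes and overlap no other annotated gene. PCK1 on chromosome A is the 17th gene from its nearest end and ALD4 on chromosome F the 14th, and the others are the 141st or farther, with ACS1 on A, ICL1 and ALD5 on C, ICL2 and CIT3 on E, and MLS1 and POX1 on F. Of the 36 genes that are the nearest 2 on each side, 13 were higher and 12 lower in the sir2Δ average. Of all tested genes 30.9% were higher and 30.2% lower there. PDH1 is the direct neighbour of CIT3, and the neighbour on the other side, LOC1, was lower (-1.62 ± 0.09).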

How the data were processed

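RNA from 17 libraries of 2 K. lactis strains at 4 nicotinic acid levels was enriched for poly(A) and read from both ends. The authors' count table gives raw counts of 5335 genes. The submitters' processing notes name cutadapt, Bowtie2, featureCounts, SAMtools, DESeq2, MultiQC and FastQC. Their settings, the genome build and the handling of strand and multiply matching reads are not known here, so reads of near-identical genes may be split. The deposited normalized signal (5302 genes) equals the counts divided by size factors to within 4.66e-09 reads and served only as a check. Names, coding lengths and gene order came from RefSeq ASM251v1; no build is named for the counts, so no coordinates are given. Totals were 24663143 to 38246270 reads per library (median 33734530).

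Counts of WT libraries 1 and 1R at 400 µg/L were summed, leaving 16 columns in 8 groups. Genes passing filterByExpr (minimum count 10; 5224 kept, 111 removed) entered edgeR 4.0.16 under R 4.3.3 (TMM factors, robust quasi-likelihood test, 1 mean per group, all groups sharing the spread, 8 residual degrees of freedom, common biological coefficient of variation 0.0857). P-values were adjusted by Benjamini-Hochberg across the 5224 genes, and a gene was called under 0.05. Fold changes are log2 (prior count 0.125) ± SE. The 12 planned comparisons were the strains at each level and averaged, each lower level against 400 µg/L within a strain, and the interaction at 15 µg/L; 2 more interactions were added later. Alternatives were RLE and upper-quartile factors, DESeq2 1.42.0, no count filter, a replicate block, only the groups compared, libraries 1 and 1R as separate columns, and leaving out each replicate.

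The members and lists were chosen with earlier results of these data known. Named beyond the members are all propionate, carnitine and regulator genes, other list genes past the threshold with at least 1 log2 unit in the average or in WT at 15 µg/L, and the 5 genes most like ICL1 and MLS1. LOC1 was chosen after its values were seen. Sequences were not used here.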

Additional observations from a re-analysis of the deposited data

Results flagged for a closer look

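For 6 results the change with nicotinic acid differed between the strains, by a test of that difference (edgeR quasi-likelihood test, Benjamini-Hochberg adjusted over all genes, n = 2 per group). Each value is the log2 change of the lower level over 400 µg/L in sir2Δ less the same change in WT. At 15 µg/L it was 3.02 for ACS1 (adjusted p = 0.000690), 1.33 for ICL2 (0.0232), 0.66 for ALD5 (0.0104) and -0.78 for PCK1 (0.0188). At 45 µg/L it was -0.54 for MLS1 (adjusted p = 0.0407) and -0.54 for ALD4 (0.0310). ACS1 is the gene whose changes at 15 µg/L ran in opposite directions, higher in both sir2Δ replicates and lower in both WT replicates than at 400 µg/L. The ACS1 difference was called under its 17 alternatives, and the other 5 each lost the call under 5 or more of theirs.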

How the results depend on the processing

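Over 1683 single-gene values recomputed under alternatives, 1561 kept direction and side of the threshold, 93 lost the call, 29 gained one and 0 reversed a call. Counts of called members in the strain comparisons and at 15 against 400 µg/L within a strain stayed within 1.5 times. For sir2Δ at 135 against 400 µg/L the count was 1, and it was 2 with DESeq2, 3 with only the groups compared, 0 with libraries 1 and 1R as separate columns and 0 to 0 leaving out a replicate. For WT at 135 against 400 µg/L it was 2, and 1 with only the groups compared, 1 with separate columns and 1 to 2 leaving out a replicate. For sir2Δ at 45 against 400 µg/L it was 5, and 3 with separate columns and 3 to 4 leaving out a replicate. For WT at 45 against 400 µg/L it was 2, and 2 to 4 leaving out a replicate. For the interaction at 15 µg/L it was 4, and 1 with separate columns and 1 to 4 leaving out a replicate. The added interaction at 45 µg/L had 2, and 0 with upper-quartile factors, only the groups compared or separate columns, 4 with the replicate block and 0 to 3 leaving out a replicate. The cause of these shifts was not tested.

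Whether replicate numbers pair the samples is not known here. Same-numbered columns of the strains deviated from their group means with r of 0.194 at 15 µg/L, 0.324 at 45, -0.095 at 135 and -0.133 at 400. With 2 replicates per group the deviations in a group mirror each other, so these values cannot decide it. A replicate block raised the genes called in the strain average from 3195 to 3414. With the numbers as a replicate block, ACS1 lost its calls at 135 and 400 µg/L with estimates of -1.004 and -1.06 (adjusted p = 0.0874 and 0.0625), while PCK1 at 15 µg/L and ALD5 at 45 µg/L gained them (0.0215 and 0.0428), as did PCK1 and POX1 in the interaction at 45 µg/L (0.0124 and 0.0413). With upper-quartile factors the median over all tested genes became -0.11 for sir2Δ against WT at 400 µg/L and 0.10 in the interaction at 15 µg/L. Leaving out a replicate leaves a group with 1 column, which is assumed to vary like the others. The interactions at 45 and 135 µg/L were chosen after seeing the data. Depth limits CIT3 most, with as few as 39 reads in a WT column.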
